A study of Mus musculus with 2 samples.

Results

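Collagen genes were read out in the interscapular brown fat (iBAT, a thermogenic depot of the upper back) of wild-type and Ucp1-KO mice. Members were all genes whose symbol was Col, a number, the letter a and a number, which gave 44 of the 27179 genes in the count tables. Of these, 36 reached a mean normalised count of at least 10 over the 2 libraries and were examined among 15212 such genes, while 8 did not. By structure, 11 members were fibrillar chains, 6 were basement membrane chains of type IV, 6 were chains of the type VI beaded filaments and 21 belonged to other classes.

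The mice were 20-day-old C57BL/6N animals of either the wild-type or the Ucp1 knockout genotype, labelled male in the design text of the series, with no further treatment given. Ucp1 encodes uncoupling protein 1, which lets brown fat mitochondria release energy as heat. Each genotype was represented by 1 RNA-seq library from the pooled iBAT of 3 animals. There was therefore no replicate, and neither a p-value nor a standard deviation can be given. Each difference below is one between these 2 libraries. Which part of Ucp1 the knockout allele lacks was not given in the sources used here.

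Collagens are the main structural proteins of the extracellular matrix. Their chains wind into helical trimers in the endoplasmic reticulum, are hydroxylated, folded, secreted and trimmed, and then assemble outside the cell. Fibrillar collagens form the load-bearing fibres, type IV collagen forms the sheet-like network of the basement membrane that surrounds every adipocyte and capillary, and type VI collagen forms microfilaments that link cells to both. Other classes sit on fibril surfaces, span the plasma membrane or anchor basement membranes.

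The deposited values were whole-number counts per gene, which summed to 52950913 in wild-type and to 53216727 in Ucp1-KO. Counts were divided by size factors, and the difference is given as a log2 ratio of Ucp1-KO over wild-type, so that a negative value means a lower level in Ucp1-KO. In parentheses after it stands its exact 95% interval, which covers counting error only and not differences between animals. The size rule asked for a 2-fold difference, that is a log2 ratio of 1 or more in either direction.

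Several measurements set the libraries apart beyond genotype. Ucp1 had 366473 counts in wild-type against 37853 in Ucp1-KO, or a log2 ratio of -2.98, and whether the counted reads lie in the deleted part is not known. Transcripts of the Y chromosome (4 genes, Eif2s3y, Kdm5d, Uty and Ddx3y) summed to 0 counts in wild-type against 5305 in Ucp1-KO, and Xist had 32380 and 16478, so the wild-type library did not match its male label and the Ucp1-KO library held transcripts of both sexes. Mitochondrial ribosomal RNA took 1.01% of counts in wild-type against 6.01% in Ucp1-KO. Each of the 10 markers of skeletal muscle passed the 2-fold rule on the lower side in Ucp1-KO, beside 9.55% of all genes examined. The part of sex, muscle tissue and RNA makeup in the collagen values was not tested, and with 1 library per genotype they cannot be told apart from the knockout.

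The sequences upstream of the most strongly differing abundant collagens, Col12a1 and Col27a1, are shown beside that of Col1a1, a main fibril chain that differed little between the libraries. Each is the 250 bases before the annotated start of the canonical transcript in the GRCm39 genome, written 5′ to 3′ on the strand of the gene. Capitals mark matches to the GC box GGGCGG or the CCAAT box CCAAT on either strand. The canonical start of Col27a1 lies inside the annotated span of the gene, so its window does too.
Col12a1, chr9:79626136-79626385, minus strand: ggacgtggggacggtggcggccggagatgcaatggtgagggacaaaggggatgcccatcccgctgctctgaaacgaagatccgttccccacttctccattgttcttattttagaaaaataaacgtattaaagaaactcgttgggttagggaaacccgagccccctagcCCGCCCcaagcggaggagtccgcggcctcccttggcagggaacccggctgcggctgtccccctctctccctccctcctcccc
Col27a1, chr4:63133422-63133671, plus strand: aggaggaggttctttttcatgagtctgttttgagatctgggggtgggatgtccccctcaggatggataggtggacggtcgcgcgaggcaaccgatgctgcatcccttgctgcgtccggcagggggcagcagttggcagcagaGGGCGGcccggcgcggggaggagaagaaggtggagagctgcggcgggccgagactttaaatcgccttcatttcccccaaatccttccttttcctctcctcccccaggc
Col1a1, chr11:94826800-94827049, plus strand: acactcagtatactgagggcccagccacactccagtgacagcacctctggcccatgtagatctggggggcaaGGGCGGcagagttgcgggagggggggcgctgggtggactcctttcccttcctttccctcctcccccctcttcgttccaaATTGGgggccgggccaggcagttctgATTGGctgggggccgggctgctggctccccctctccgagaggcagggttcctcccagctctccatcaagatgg

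The Col12a1 and Col27a1 windows each held 1 GC box and no CCAAT box, with a GC content of 60.0% and 61.6%. The Col1a1 window held a GC box and a pair of CCAAT boxes on the reverse strand, with a GC content of 64.8%. Across the 44 collagen windows the GC box was found in 47.7% and the CCAAT box in 34.1%, against 47.7% and 35.6% of the 13825 genes examined that had such a window. The TATA box TATAAA was found in 7 collagen windows or 15.9%, those of Col3a1, Col10a1, Col11a2, Col13a1, Col14a1, Col17a1 and Col19a1, against 7.55% of all. The AP-1 motif TGANTCA was found in 0 collagen windows and in 4.80% of all, and TGATGNAA, the core of the element bound by stress response factors of the ATF4 family, in 1 window, that of Col18a1, or 2.27% against 2.16% of all. All motifs were searched on both strands, and a match is a match of letters and not a measured binding site.

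Collagen transcripts together had 262148 counts in wild-type against 200078 in Ucp1-KO, which was 0.495% and 0.376% of each library. After scaling, the sum differed by a log2 ratio of -0.09 (-0.10 to -0.08). Taken over the 36 genes examined with equal weight, the median log2 ratio was -0.12, beside -0.0016 over all 15212 genes. Of the 36, 24 or 66.7% were below 0, beside 50.1% of all genes. An interval wholly below 0 was found for 19 or 52.8%, beside 30.5% of all genes, and one wholly above 0 for 7 or 19.4%, beside 31.5%. In bulk tissue, fewer cells of a type and less RNA per cell cannot be told apart.

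Past the size rule, 3 collagens were higher in Ucp1-KO, Col12a1, Col27a1 and Col10a1, which is 8.33% of those examined beside 7.42% of all genes. In the other direction 6 collagens were lower, Col25a1, Col17a1, Col6a6, Col4a4, Col24a1 and Col8a1, which is 16.7% beside 9.55% of all genes. Of these 9 collagens, Col10a1, Col17a1 and Col25a1 reached the filter only through the library where they were higher, so they had to differ, and the shares are no support for a difference. When the libraries were scaled to equal totals instead, which moves the median of all genes to -0.31, the split was 3 higher and 10 lower. Many of the lower genes were scarce, and scarce genes passed the size rule often whatever their kind, so the counts were read by abundance.

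Among the 15 collagens whose normalised counts averaged 1000 or more, 2 passed the size rule, both higher, which is 13.3% beside 5.49% of all genes as abundant. Their median log2 ratio was -0.12 against 0.06 for all genes of that abundance. Apart from Col12a1 and Col27a1, the other 13 abundant collagens lay between -0.84 and 0.20. Among the 10 collagens between 100 and 1000, 1 passed, Col8a1, where 13.3% of all genes did. Among the 11 collagens between 10 and 100, 6 passed, 1 higher and 5 lower, at 54.5% beside 44.0% of all genes, and their median was -0.83 against -0.11. Of these 11, 6 were under a normalised count of 10 in 1 library and reached the filter through the other alone. Among those 6, 3 were past the size rule, Col10a1, Col17a1 and Col25a1. The share and the median of this group are therefore no support for a difference.

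**Figure D1:**
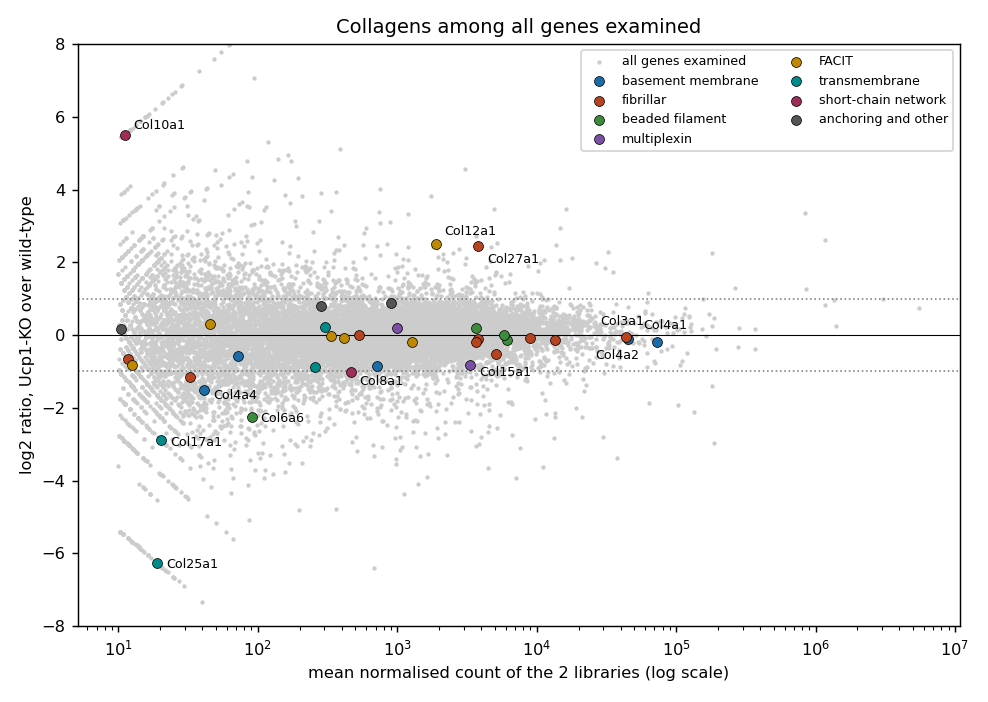
Log2 ratio of Ucp1-KO over wild-type (y axis) against the mean normalised count of the 2 libraries (x axis, log scale), with collagens coloured by class and all 15212 genes examined in grey; 6 genes lie beyond the y axis limits, dotted lines mark the size rule, and the position of genes with 0 counts in 1 library depends on the added 0.5. The most abundant collagens sit close to 0, Col12a1 and Col27a1 stand at 2.50 and 2.44, and of the 6 collagens past the rule on the lower side 5 lie between 10 and 100 and Col8a1 between 100 and 1000 on the x axis.

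Col12a1 encodes the chain of type XII collagen, a fibril-associated collagen found in tendon, ligament and other loaded connective tissue. In GRCm39 it spans chromosome 9 from 79506268 to 79626135, minus strand (Entrez gene 12816). It had 629 counts in wild-type against 2889 in Ucp1-KO, or a log2 ratio of 2.50 (2.32 to 2.68), which is 5.65-fold. Normalised counts per kilobase of transcript were 47.9 and 270.6, which moved Col12a1 from the 24th to the 14th rank among the collagens.

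Col27a1 encodes type XXVII collagen, a fibrillar chain best known from growing cartilage. It lies on chromosome 4 from 63132241 to 63253228 on the plus strand (Entrez gene 373864). It had 1309 counts in wild-type against 5771 in Ucp1-KO, or a log2 ratio of 2.44 (2.32 to 2.56), which is 5.43-fold. Its share of all collagen counts was 0.499% and 2.88%, and its level per kilobase ranked 15th in wild-type and 8th in Ucp1-KO. Without Col12a1 and Col27a1 the summed collagen counts differed by a log2 ratio of -0.14 instead of -0.09.

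The nearest genes past the filter on either side of both were looked at after their values had been seen. Cox7a2, a respiratory chain subunit gene 26.9 kb from Col12a1, had 3 counts in wild-type against 31 in Ucp1-KO, or a log2 ratio of 3.44 (1.34 to 7.57). Farther out on the same side, Tmem30a at 49.4 kb had 4551 and 4290 counts, or a log2 ratio of 0.21. Orm1, an acute phase protein gene 7.82 kb from Col27a1, had 2727 and 1813 counts, or a log2 ratio of -0.29. Orm3, also a neighbour of Col27a1, stood at -1.37. Zfp618, on its other side, had 43 and 5 counts, or a log2 ratio of -2.70 (-5.49 to -0.94). Zfp618 reached the filter through the wild-type library alone, so it had to differ. Cox7a2 reached the filter through the Ucp1-KO library alone. Its 3 wild-type counts lie under the 6 counts that a count of 0 allows. The treatment of reads that match several places was not given, so the level of Cox7a2 is uncertain. On the far side of Col12a1, Slc17a5 at 1011 kb and Cd109 at 883 kb stood at -0.91 and 0.48. Rgs3, 510 kb from Col27a1, stood at -0.22.

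The fibril-forming chains of types I, III and V were among the most abundant collagens and differed little between the libraries. Col3a1, the type III chain of soft-tissue fibres, had 49493 counts in wild-type against 38387 in Ucp1-KO, or a log2 ratio of -0.07 (-0.09 to -0.04). Col1a1 and Col1a2 encode the chains of type I collagen, the main fibril former of connective tissue. Col1a1 had 15678 and 11685 counts, or a log2 ratio of -0.12 (-0.17 to -0.08), and Col1a2 had 10201 and 7780, or a log2 ratio of -0.09 (-0.15 to -0.03). These chains were thus slightly lower in Ucp1-KO, beyond counting error but far within the size rule.

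Type V collagen nucleates and limits the width of type I fibrils. Col5a1 had 4404 and 3293 counts, or a log2 ratio of -0.12 (-0.21 to -0.03), and Col5a2 had 4327 and 3106, or a log2 ratio of -0.18 (-0.27 to -0.08). Col5a3, an alternative chain of the trimer, had 6671 and 3789 counts, or a log2 ratio of -0.52 (-0.60 to -0.43). Per kilobase, Col5a3 transcripts stood to Col5a1 transcripts at 2.07 (1.96 to 2.18) in wild-type and 1.57 (1.47 to 1.68) in Ucp1-KO, while the Col5a1 to Col5a2 ratio was 0.910 and 0.948 with overlapping intervals. Col5a3 therefore made up a smaller part of the type V transcripts in the Ucp1-KO library.

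The scarcer fibrillar chains are better known from cartilage and bone. Col11a2, which can pair with type V chains, had 591 and 483 counts, or a log2 ratio of 0.01. Col24a1 had 50 and 18 counts, or a log2 ratio of -1.15 (-2.46 to -0.03), and the interval for Col11a1, with 16 and 8 counts, included 0. Col2a1, the defining collagen of cartilage, had 0 and 6 counts, which is at the limit that a count of 0 allows, so no ratio is given. Of the 10 fibrillar chains examined, 1 was past the size rule on each side, and their median log2 ratio was -0.12.

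Type IV collagen, the network former of basement membranes, was the most abundant collagen in both libraries. Col4a1 had 86979 counts in wild-type against 61896 in Ucp1-KO, or a log2 ratio of -0.19 (-0.21 to -0.17). Col4a2, its partner in the common trimer, had 52356 and 39280, or a log2 ratio of -0.11 (-0.14 to -0.09). Both are transcribed away from each other on chromosome 8, Col4a1 on the minus strand from 11248423 to 11362826 and Col4a2 on the plus strand from 11362471 to 11499287. Their canonical starts overlap by 318 bases.

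The other type IV chains form trimers of restricted tissues such as kidney. Col4a5 had 1026 and 462 counts, or a log2 ratio of -0.85 (-1.08 to -0.62). Col4a3 had 95 and 52 counts, or a log2 ratio of -0.57 (-1.32 to 0.15), and Col4a4 had 68 and 19, or a log2 ratio of -1.52 (-2.75 to -0.47). Col4a6 had 20 counts in wild-type against 0 in Ucp1-KO, with an interval wholly below -0.86. It lay under the filter on low counts. All 5 type IV chains examined were below 0, beside 50.1% of all genes, with a median of -0.57. Of these chains, 4 had an interval wholly below 0, beside 30.5% of all genes. The 2 abundant chains set the summed log2 ratio of the class, -0.17 (-0.18 to -0.15), which is nearer to 0 than the median.

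Type VI collagen forms beaded filaments around adipocytes and muscle fibres. Col6a1 had 3807 counts in wild-type against 3543 in Ucp1-KO, or a log2 ratio of 0.20 (0.10 to 0.29), although its direction turned to -0.11 when libraries were scaled to equal totals. Col6a2 had 6448 and 5243 counts, or a log2 ratio of 0.0012 (-0.07 to 0.08), and Col6a3 had 7180 and 5273, or a log2 ratio of -0.15 (-0.22 to -0.07). The 3 chains assemble in equal numbers, and the ratio of Col6a1 to Col6a2 per kilobase was 0.860 (0.812 to 0.910) in wild-type and 0.984 (0.926 to 1.05) in Ucp1-KO. With the union of all annotated exons as length it was 1.11 and 1.27, so whether it lay nearer to 1 in Ucp1-KO depends on the length used. Col6a3 stood to Col6a2 at 0.730 (0.696 to 0.766) and 0.659 (0.624 to 0.696) per kilobase of canonical transcript.

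Col6a6, a chain that can take the place of Col6a3, stood apart from the other chains of its type. It had 166 counts in wild-type against 28 in Ucp1-KO, or a log2 ratio of -2.25 (-3.20 to -1.44), which is 4.82-fold lower. The gene overlaps Pik3r4 on the opposite strand, which had 602 and 360 counts. Col6a6 spans chromosome 9 from 105564724 to 105705561 and Pik3r4 ends at 105564856, so only 1 end of Col6a6 is overlapped. The strand setting of the counting was not given, so reads of these genes cannot be told apart where they overlap. Col6a5 had 3 and 8 counts, with an interval of the log2 ratio from -1.29 to 5.89, and Col6a4 had 0 in both libraries.

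**Figure D2:**
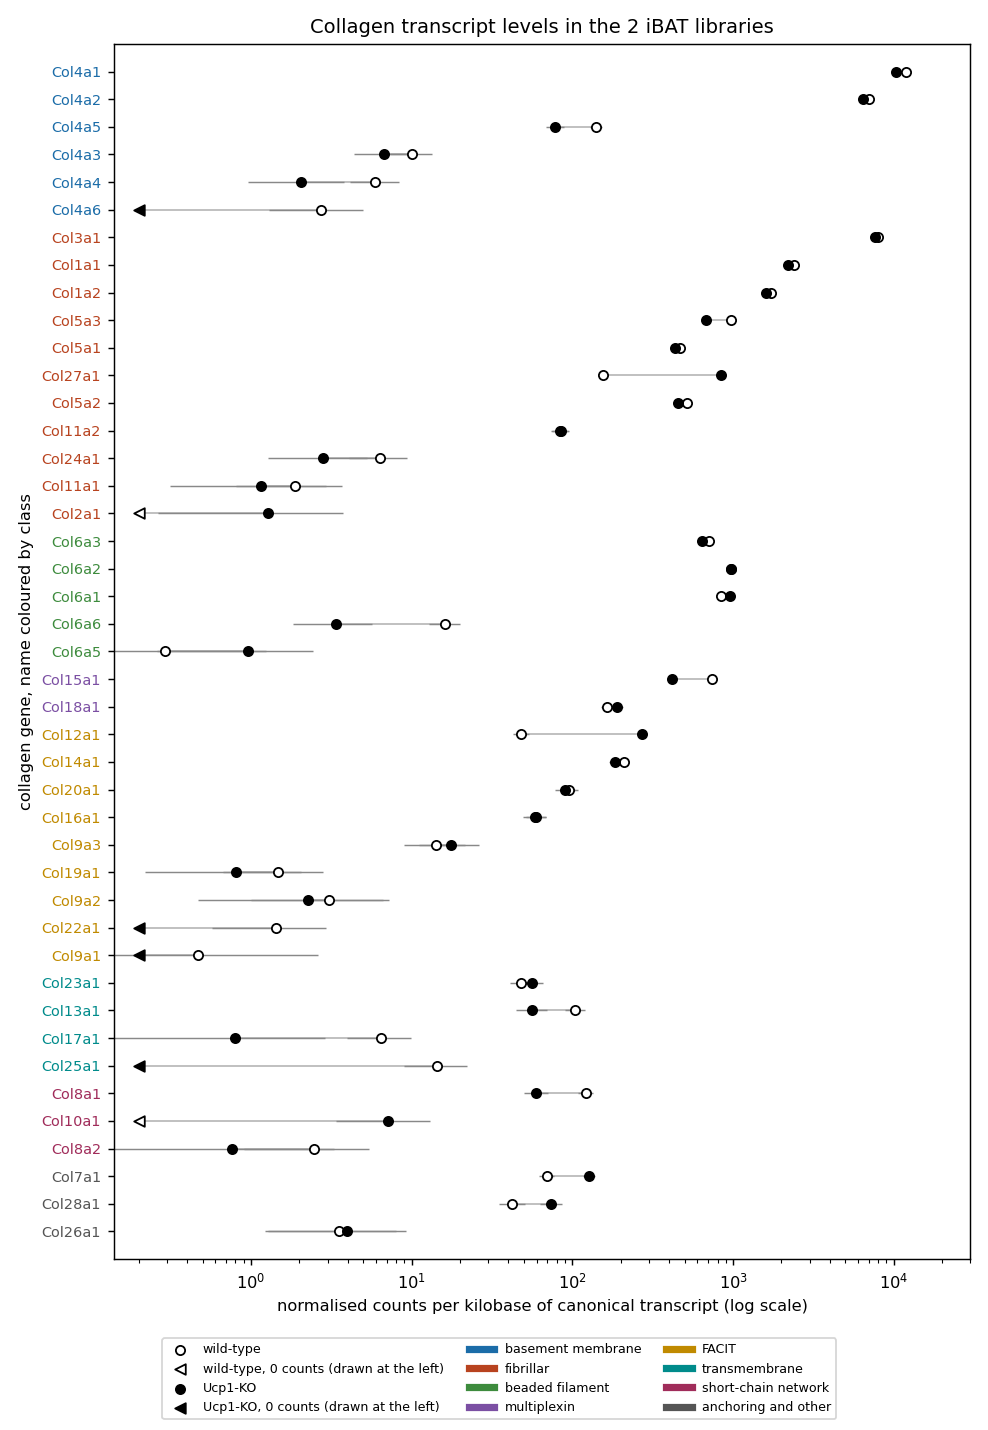
Normalised counts per kilobase of canonical transcript (x axis, log scale) of 43 collagen genes (y axis, grouped and coloured by class) in the wild-type library (open) and the Ucp1-KO library (filled), with 95% counting intervals as grey lines; triangles mark 0 counts, and Col6a4, with 0 in both libraries, is not drawn. Col4a1, Col3a1 and Col4a2 lead both libraries, and the widest gaps among abundant genes are those of Col27a1 and Col12a1.

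Compared on the scale of normalised counts per kilobase, Col4a1 was the highest collagen, at 11852 in wild-type and 10381 in Ucp1-KO. It was followed by Col3a1 at 8018 and 7654, Col4a2 at 6995 and 6460, Col1a1 at 2383 and 2186 and Col1a2 at 1716 and 1611. These first 5 ranks were the same in both libraries. Below them, Col5a3 went from rank 7 to rank 9 and Col15a1 from rank 9 to rank 13.

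The makeup of the collagen pool, which does not depend on scaling between libraries, was led by type IV in both. Basement membrane chains held 53.6% (53.3 to 53.9) of collagen counts in wild-type against 50.8% (50.5 to 51.1) in Ucp1-KO, with exact 95% binomial intervals in parentheses. Fibrillar chains held 35.4% (35.1 to 35.6) and 37.1% (36.8 to 37.4), of which Col27a1 accounted for 0.499% and 2.88%. Beaded filament chains held 6.72% and 7.04%, and the remaining classes 4.30% and 4.97%. The shift from basement membrane to fibrillar chains was thus beyond counting error, and the gain in the share of Col27a1 was larger than that of the fibrillar class as a whole.

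Ratios between chains of a trimer do not depend on the scaling between libraries either. Per kilobase, Col1a1 stood to Col1a2 at 1.39 (1.34 to 1.44) in wild-type and 1.36 (1.30 to 1.41) in Ucp1-KO, beside the 2 to 1 makeup of the type I trimer. The level of these ratios depends on the transcript length used, and with the union of all annotated exons it was 2.96 and 2.89. Col4a1 stood to Col4a2 at 1.69 (1.67 to 1.72) and 1.61 (1.58 to 1.64), intervals that did not overlap, and Col3a1 to Col1a1 at 3.36 and 3.50. Col6a6 stood to Col6a3 at 0.023 and 0.005.

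Fibril-associated collagens bind to the surface of fibres. Apart from Col12a1, the more abundant of them differed little. Col14a1, the relative of Col12a1, had 1499 and 1072 counts, or a log2 ratio of -0.18 (-0.35 to -0.02). Col20a1 had 473 and 365 counts, or a log2 ratio of -0.07, and Col16a1 had 375 and 299, or a log2 ratio of -0.03, both with intervals that included 0. Of the 6 members examined in this class 1 passed the size rule, the median log2 ratio was -0.05, and the sum, raised by Col12a1, was at 0.91. Col9a3 and Col19a1 had at most 45 counts in a library, with intervals that included 0.

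Col15a1 and Col18a1, the multiplexins, carry heparan or chondroitin sulfate chains and lie at the outer face of basement membranes of vessels, muscle and fat. Col15a1 had 4753 counts in wild-type against 2162 in Ucp1-KO, or a log2 ratio of -0.84 (-0.94 to -0.73), the lowest of the abundant collagens. Col18a1, the source of endostatin, had 1025 and 952 counts, or a log2 ratio of 0.19 (0.01 to 0.38) that turned to -0.11 with scaling to equal totals. The gene overlaps Slc19a1 on the opposite strand, with 1215 and 1083 counts, so its count is uncertain in the same way as that of Col6a6.

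Transmembrane collagens were low, and of the 4 examined 3 were below 0, beside 50.1% of all genes. Col13a1, which is found at neuromuscular junctions and other adhesion sites, had 370 and 163 counts, or a log2 ratio of -0.88 (-1.28 to -0.50). Col23a1 had 312 and 293 counts, or a log2 ratio of 0.21 (-0.13 to 0.54). Col17a1, a component of keratinocyte hemidesmosomes, had 40 and 4 counts, or a log2 ratio of -2.89 (-6.16 to -0.98), and Col25a1 had 42 and 0 counts, with an interval of the log2 ratio wholly below -2.08. Col17a1 and Col25a1 reached the filter through the wild-type library alone, so they had to be lower. Of the 5 keratinocyte markers, Krt5 and Krt14 were at 0 in both libraries, Krt10 had 119 and 93 counts, and the summed counts of the list were 137 and 98.

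Among the network formers with short chains, Col8a1 of vessel walls had 689 and 275 counts, or a log2 ratio of -1.02 (-1.32 to -0.74). Col10a1, the collagen of hypertrophic cartilage, had 0 counts in wild-type against 20 in Ucp1-KO, and the interval of its log2 ratio lay wholly above 1.46. It lies inside Nt5dc1 on the opposite strand, with 1137 and 774 counts, so its count is uncertain for the same reason. Of the cartilage markers, 4 of 7 were at 0 in wild-type and 3 in Ucp1-KO, and of the 4 bone markers Sp7 and Ibsp were at 0 in both libraries, Dmp1 had 5 and 10 counts and Bglap 0 and 10.

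Col7a1 and Col28a1 were higher in Ucp1-KO without passing the size rule. Col7a1, which forms the anchoring fibrils of epithelial basement membranes, had 709 and 1055 counts, or a log2 ratio of 0.87 (0.68 to 1.07). Col28a1, known from basement membranes of peripheral nerve, had 232 and 327 counts, or a log2 ratio of 0.79 (0.44 to 1.15). Col26a1 had 11 and 10 counts.

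The 8 collagens under the filter were Col2a1, Col4a6, Col6a4, Col6a5, Col8a2, Col9a1, Col9a2 and Col22a1, with 0 to 20 counts in wild-type against 0 to 8 in Ucp1-KO. Col22a1, the collagen of the junction between muscle and tendon, had 14 counts in wild-type against 0 in Ucp1-KO, with an interval wholly below -0.23. Col8a2 had 12 and 3 counts, with an interval of the log2 ratio from -5.76 to 1.00.

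**Figure D3:**
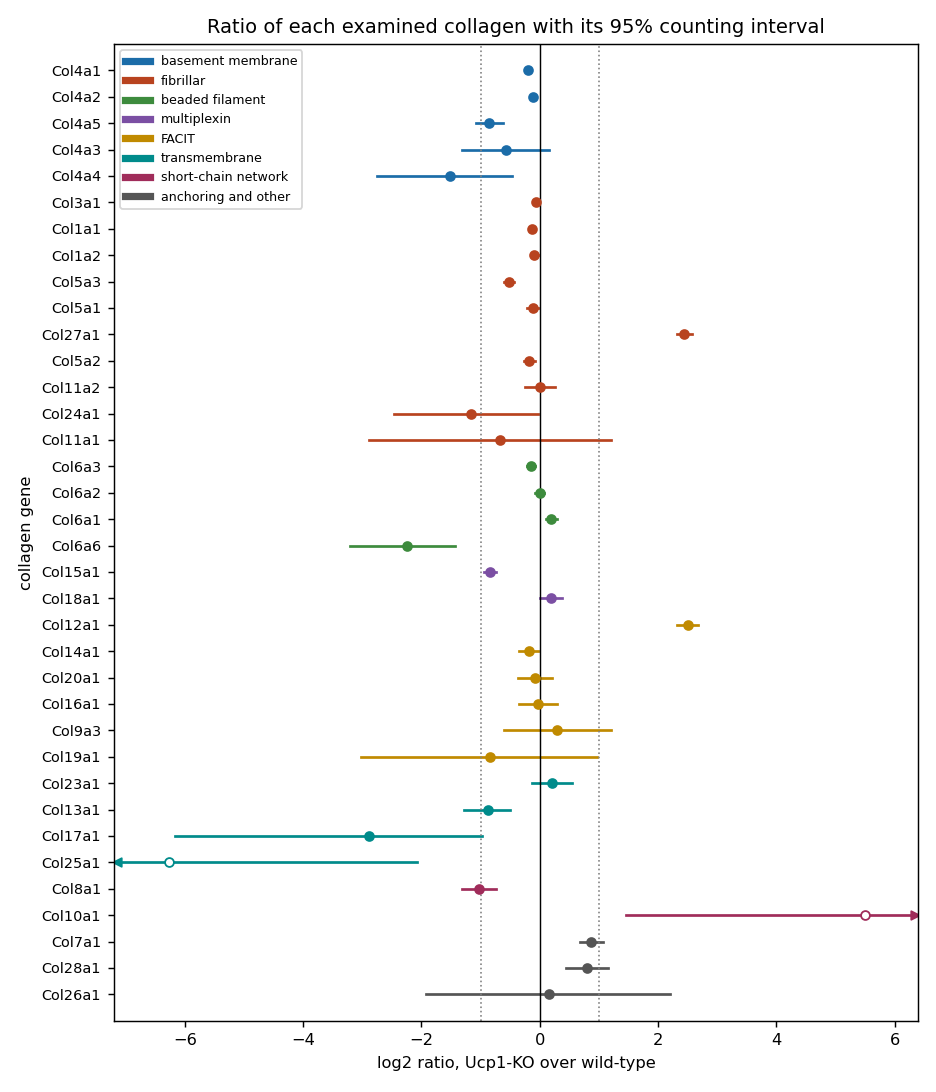
Log2 ratio of Ucp1-KO over wild-type (x axis) with its 95% counting interval for the 36 collagens examined (y axis, coloured by class); dotted lines mark the size rule, and the open points of Col25a1 and Col10a1, with 0 counts in 1 library, depend on the added 0.5. All 5 type IV chains lie left of 0, beside 50.1% of all genes examined. An interval wholly right of 0 is drawn for 7 collagens or 19.4%, beside 31.5% of all genes. They are Col12a1, Col27a1, Col10a1, Col7a1, Col28a1, Col6a1 and Col18a1.

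Collagen chains need modifying enzymes and a chaperone before secretion. Of the 20 genes of procollagen modification and folding, 0 passed the size rule on the higher and 4 on the lower side, with a median log2 ratio of -0.16. Beside this and the next lists stand the same 7.42% higher and 9.55% lower of all genes. P4ha1, a catalytic subunit of prolyl 4-hydroxylase, had 7322 counts in wild-type against 2550 in Ucp1-KO, or a log2 ratio of -1.22 (-1.32 to -1.13). Its relative P4ha2 had 1826 and 639 counts, or a log2 ratio of -1.21, and P4ha3 had 28 and 2, or a log2 ratio of -3.24 (-8.91 to -0.79). P4ha3 reached the filter through the wild-type library alone, so it had to differ. Colgalt2, which adds galactose to hydroxylysine, had 593 and 150 counts, or a log2 ratio of -1.68. Serpinh1, the collagen chaperone HSP47, had 14296 and 7056 counts, or a log2 ratio of -0.72 and thus under the size rule. P4ha2 and Serpinh1 were chosen after their values were seen.

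Of the 7 propeptide cleavage genes examined, 0 were higher and 2 lower past the size rule, Tll1 with 88 and 16 counts at -2.13 and Adamts14 with 80 and 27 at -1.25, and the median was -0.40. Adamts3 had 34 and 16 counts, or a log2 ratio of -0.77. Of the 5 lysyl oxidase genes, which cross-link collagen, 0 passed the size rule in either direction, and the median was -0.19. Lox had 1836 and 1090 counts, or a log2 ratio of -0.45, while Loxl4 and Loxl1 stood at -0.22 and -0.19.

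The 16 collagen-binding proteoglycans and fibril partners had 2 genes higher and 1 lower past the size rule. The higher genes were Thbs1, encoding the matricellular protein thrombospondin 1, with 964 and 2771 counts and a log2 ratio of 1.82, and Tnc, encoding tenascin C, with 940 and 2024 counts and a log2 ratio of 1.41. Comp, a cartilage and tendon protein, had 22 and 2 counts, or a log2 ratio of -2.90, and reached the filter through the wild-type library alone. The median of this list was -0.15 while its summed counts stood at 0.01, so the signs differed.

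Of the 8 collagen receptors 1 was higher and 1 lower past the size rule, with a median of -0.36. Itga2, the integrin alpha 2 chain, had 2 counts in wild-type against 28 in Ucp1-KO, or a log2 ratio of 3.78 (1.39 to 9.51). Itga2 reached the filter through the Ucp1-KO library alone, so it had to differ. Itga11, the fibroblast integrin chain that binds fibrillar collagen, had 105 and 28 counts, or a log2 ratio of -1.59. Ddr1, a collagen-activated receptor tyrosine kinase, had 478 and 202 counts, or a log2 ratio of -0.94.

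**Figure D4:**
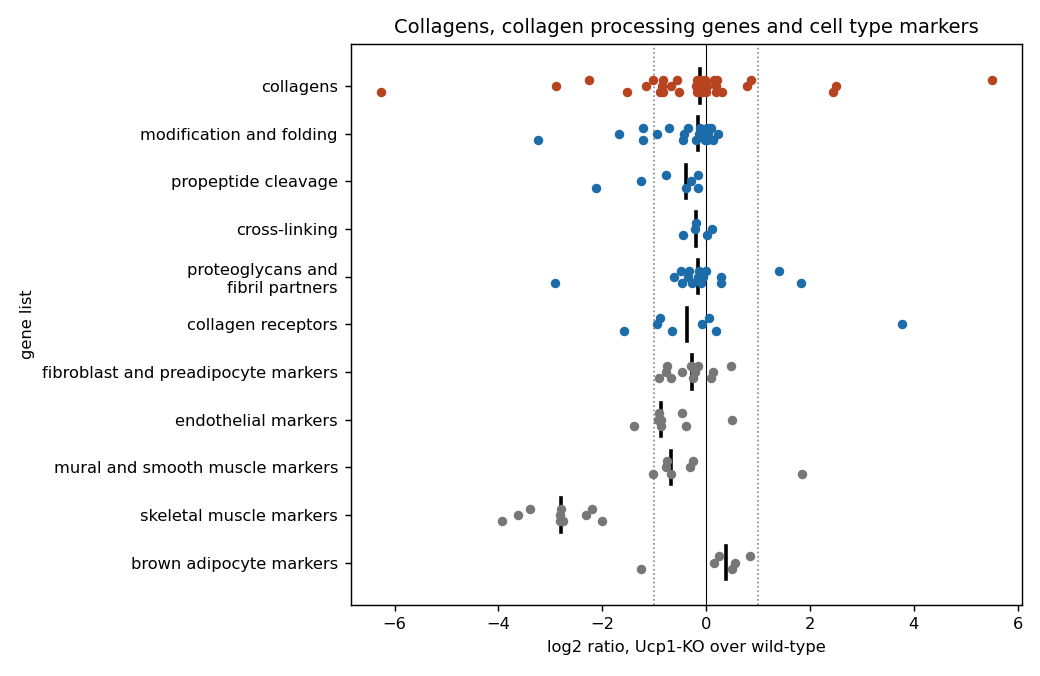
Log2 ratio of Ucp1-KO over wild-type (x axis) of each gene examined in the collagen family, in 5 lists of genes that process or bind collagen and in 5 lists of cell type markers (y axis); points are genes, black bars are medians and dotted lines mark the size rule. The collagen median of -0.12 lies above the medians of the fibroblast (-0.28), endothelial (-0.87), mural and smooth muscle (-0.68) and skeletal muscle (-2.80) markers. It lies below that of the brown adipocyte markers (0.37).

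Cells that make collagen were followed by their markers. Beside the counts below, 50.1% of all genes examined were below 0. An interval wholly below 0 was found for 30.5% of all genes, and one wholly above 0 for 31.5%. All 12 fibroblast and preadipocyte markers were detected, 9 were below 0, the median was -0.28 and the summed counts were 26300 in wild-type and 16408 in Ucp1-KO, with Fbln1, Clec3b and Dlk1 at -0.91, -0.78 and -0.75. Of the 8 endothelial markers 7 were lower and 1, Cldn5 at 0.50, was higher beyond counting error, with a median of -0.87 and sums of 113209 and 56679, with Emcn, Egfl7 and Flt1 at -1.39, -0.92 and -0.91. Of the 7 mural and smooth muscle markers 6 were lower and 1 higher beyond counting error, with a median of -0.68 and sums of 20525 and 11627, with Cnn1, Acta2 and Kcnj8 at 1.85, -1.02 and -0.77. The lower values of Col4a1, Col4a2, Col15a1 and Col8a1, collagens of vessels among other sites, stood beside these markers, whose part in them was not tested. Col18a1, found at vessels too, was at 0.19.

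The 10 skeletal muscle markers had a median of -2.80 and summed counts of 280774 and 32072, with Pvalb, Mylpf and Acta1 at -3.92, -3.63 and -3.39. Col6a6, Col13a1, Col22a1 and Col25a1 were lower in the same library. Of these, Col25a1 reached the filter through the wild-type library alone and Col22a1 lay under it. Col6a1, Col6a2 and Col6a3, type VI chains found around muscle fibres too, stood at 0.20, 0.0012 and -0.15. The part of muscle in these values was not tested. The tendon markers Tnmd and Mkx were at 0 in both libraries, Scx had 37 and 26 counts and Comp 22 and 2, beside the higher Col12a1. The cartilage markers Matn1, Hapln1 and Snorc were at 0 in both libraries, Matn3 had 0 and 4 counts, and Acan, Sox9 and Chad stood at -0.68, 0.62 and 0.11, beside the higher Col27a1. The 6 brown adipocyte markers had a median of 0.37 and sums of 543686 and 536291, with Lep, Adipoq and Plin1 at -1.26, 0.84 and 0.56.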

How the data were processed

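RNA was measured in 2 directional, poly-A enriched iBAT libraries, 1 per genotype. The deposited values are raw counts per gene that the authors made with featureCounts. Trim Galore, HISAT2 and the genome build mm39 are named in the submitters' processing notes. The annotation, the tool versions, the strand setting and the treatment of reads that match several places were not given in the sources used here, so genes that overlap others are uncertain. Rows without a symbol, with 0.156% of counts in wild-type against 0.121% in Ucp1-KO, stayed in the totals.

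DESeq2 1.42.0 (R 4.3.3) gave the size factors by its median-of-ratios method, 1.11 for wild-type and 0.901 for Ucp1-KO, and counts were divided by them. Trimmed-mean scaling (edgeR 4.0.16) and equal totals were alternatives. The log2 ratio is log2((Ucp1-KO + 0.5)/(wild-type + 0.5)). A gene was examined where its normalised counts averaged 10 or more. Low counts were more often even than odd (70.7% and 73.4% even among genes with 1 to 10 counts), as when both mates of a pair are counted, so the exact 95% intervals (Python 3.11.15, scipy 1.17.1) were computed on read pairs, taken as counts divided by 2. For a count of 0 the upper limit was set at 3 read pairs, or 6 counts, per library, which is 0.113 CPM. No molecular identifiers were used, so reads are not independent molecules and intervals cover counting error only. The code was tested on simulated data.

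The members, classes and lists were chosen with earlier results of these data known. Values are given for each member at a mean of at least 100, for all chains of types I, III, IV, V and VI, for the 3 genes of every other list whose log2 ratio was farthest from 0, and for whole lists of up to 4 genes. A marker list among these is not reported here. Genes outside this rule are marked in the text as picked with their values known, except Col members and marker genes named because they were at or near 0. Positions, transcript lengths (the canonical transcript) and sequences are those of GRCm39 with GENCODE mouse release 39, joined by symbol, which matched 44 of 44 members.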

Additional observations from a re-analysis of the deposited data

How the results depend on the processing

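No paired analysis was possible because either genotype has a single library, and for the same reason no replicate could be left out. Of 110 alternative values for the main results, 69 stayed within the interval or within 1.5 times the count. For medians this interval ran between the medians of the members' lower and upper limits, so it is not a counting interval of the median. Of the 69, 2 changed only the interval of a share and could not move. For single collagens 186 of 207 values stayed within the counting interval. Of these, 36 without the filter on low counts and 27 with a minimum of 50 were fixed in advance. A filter does not change a gene's own ratio. Every single-collagen value outside the counting interval came from equal library totals, where 15 stayed, 19 moved and 2 turned in direction. Col1a1 and Col3a1 then stood at -0.43 and -0.37. With equal library totals, 10 collagens were lower past the size rule. The medians then were -0.43 for all collagens, -0.43 for fibrillar and -0.38 for beaded filament chains, -0.47 for modification and folding, -0.70 for propeptide cleavage, -0.50 for cross-linking, -0.45 for fibril partners and -0.67 for receptors, and Col6a1 and Col18a1 turned to -0.11. Without the filter on low counts 5 collagens were higher and 10 lower, and the propeptide cleavage median was -0.58. With a minimum of 50, 2 were lower and the receptor median was -0.65. Asking for an interval wholly beyond 2-fold left 2 lower collagens. Summed counts in place of medians gave -0.020 for fibrillar and -0.17 for basement membrane chains, -0.45 for modification and folding, 0.015 for fibril partners, a turn in direction, and -0.082 for receptors. Per kilobase, the class shares in wild-type and Ucp1-KO were 50.5% and 48.3% for basement membrane, 38.1% and 39.8% for fibrillar and 4.66% and 4.60% for other classes, and 7.36% for beaded filaments in Ucp1-KO. Without mitochondrially encoded genes in the total, collagens held 0.638% and 0.594%. With union exon lengths the chain ratios in wild-type and Ucp1-KO were 2.96 and 2.89 for Col1a1 to Col1a2, 1.60 and 1.52 for Col4a1 to Col4a2, 1.30 and 1.36 for Col5a1 to Col5a2, 1.92 and 1.46 for Col5a3 to Col5a1, 1.11 and 1.27 for Col6a1 to Col6a2 and 1.02 and 0.918 for Col6a3 to Col6a2. Apart from the alternatives whose own construction sets the change (another filter, total or length), the cause of a change was not tested.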
